A study of Mus musculus with 6 samples.

Results

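Rasgrp1, Rasgrp2, Rasgrp3, Rasgrp4, Spred1, Spred2 and Spred3 are described here in germinal center (GC) B cells with and without Senp1, the gene of a protease that takes the small modifier SUMO off other proteins. They are the complete RasGRP and Spred gene families and make up 7 of the 19680 genes in the deposited table. The families were picked because Spred3, Rasgrp2 and Rasgrp4 had higher counts without Senp1, so the difference of each of the 7 genes between the genotypes is given below as a description, with no test.

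RNA was sequenced from B220+ CD38- FAS+ cells, the surface pattern of GC B cells, sorted from the spleens of C57BL/6 mice aged 6 to 8 weeks. The mice had received 100 µg of NP-CGG, a protein carrying a small hapten, into the abdominal cavity, and cells were taken on day 14. Both groups carry loxP sites in both copies of Senp1. The 3 WT libraries are from Senp1flox/flox mice without Cre, and the 3 cKO libraries are from Senp1flox/flox mice with Cγ1-Cre, a Cre recombinase switched on in B cells that respond to antigen, so Senp1 can be lost in any cell that has made Cre. Whether every library is a mouse of its own is not in the labels, so the spread between libraries may be partly technical. The labels call the mice paired without saying which libraries form a pair, and the genotypes were compared without pairs.

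RasGRP proteins are exchange factors: they load GTP onto the small GTPases Ras and Rap. Diacylglycerol, made by phospholipase C below the B cell receptor, draws some members of the family to membranes. Loaded Ras then starts the RAF, MEK and ERK kinase cascade. Spred proteins act at the other end of the same switch: they hold ERK signalling down and bring neurofibromin, the GTPase-activating protein encoded by Nf1, to the membrane, where it returns Ras to its GDP-bound state. RasGRP1 is the main family member of T cells, RasGRP3 is prominent in B cells, RasGRP2 acts on Rap1 and is well known from platelets, and RasGRP4 is known from mast cells and other myeloid cells.

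The chromosome 7 neighbours Rasgrp4 and Spred3 had the largest differences of the 7 genes. Spred1 on chromosome 2 went the other way, at -0.43 ± 0.26 (SE), with groups that overlapped. The upstream sequences of Spred3 and Spred1 are shown for that reason, with that of Rasgrp3, the most abundant of the 7. Each is the 250 bases before a RefSeq transcription start, 5′ to 3′ on the gene's strand, in GRCm38.p6. Capitals mark GC boxes, the letters GGGCGG read on either strand.
Spred3 (chr7:29168648-29168897, minus strand): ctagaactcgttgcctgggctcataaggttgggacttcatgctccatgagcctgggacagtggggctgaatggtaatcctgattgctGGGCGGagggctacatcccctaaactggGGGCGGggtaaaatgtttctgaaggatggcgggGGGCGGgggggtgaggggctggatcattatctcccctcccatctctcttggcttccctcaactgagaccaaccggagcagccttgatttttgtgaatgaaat
Spred1 (chr2:117120821-117121070, plus strand): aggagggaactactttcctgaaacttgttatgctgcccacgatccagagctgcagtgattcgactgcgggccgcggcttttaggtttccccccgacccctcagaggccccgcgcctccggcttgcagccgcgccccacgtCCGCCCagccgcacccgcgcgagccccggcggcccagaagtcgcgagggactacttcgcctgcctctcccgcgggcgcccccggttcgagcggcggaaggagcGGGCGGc
Rasgrp3 (chr17:75435655-75435904, plus strand): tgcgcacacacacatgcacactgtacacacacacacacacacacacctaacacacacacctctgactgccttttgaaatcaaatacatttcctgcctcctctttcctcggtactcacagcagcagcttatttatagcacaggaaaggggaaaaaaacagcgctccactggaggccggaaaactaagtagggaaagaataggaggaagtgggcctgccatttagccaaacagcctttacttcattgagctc

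The Spred3 stretch lies inside the Spred3 gene of GENCODE M21, in intron sequence, because that annotation starts the gene 1764 bases further upstream. The Spred1 stretch lies outside every annotated exon, and the Rasgrp3 stretch ends 9 bases into the first exon. GC boxes number 3 in the Spred3 stretch and 2 in the Spred1 stretch, and the Rasgrp3 stretch holds none. Upstream sequences were at hand for 6 of the 7 genes, all but Rasgrp4, with 8 starts in all. The stretches of both Rasgrp2 starts hold 5 and 2 GC boxes, and those of Rasgrp1 and Spred2 hold 1 each. A GC box occurs in 32.7% of all 32817 promoters of this length. The Rasgrp3 stretch holds the TATA box letters TATAAA (either strand), present in 12.4% of promoters. The PAX5 core letters GCGTGAC, on either strand and present in 1.78% of promoters, do not occur in these 8 windows. The E-box letters CAGGTG (17.2% of promoters) occur in the Rasgrp1 stretch and the ETS letters CCGGAAG (6.90%) in that of the second Rasgrp2 start. No match was found for CCAAT (33.8% of promoters), the CRE letters TGACGTCA (1.55%), the AP-1 letters TGANTCA (6.75%), the EBF1 motif (0.780%), the SRF motif (1.38%) or the NF-kB letters GGGNNTTCC (4.97%), each read on either strand. The bases are 55.6% G or C for Spred3, 70.8% for Spred1 and 47.6% for Rasgrp3, beside a median of 52.4% over all promoters.

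Senp1, the deleted gene, had 915, 868 and 891 normalized counts in the WT libraries, with 373, 425 and 398 in the cKO ones, and no library went against its label. Its log2 difference was -1.16 ± 0.12 (SE), with an adjusted p of 0.111 (limma) and of 2.78e-09 (DESeq2). A normalized count is the reads of a gene divided by a size factor of its library. The libraries held 5160902 to 10339054 reads in WT and 3019152 to 9657005 in cKO, and mitochondrial genes took 2.71% to 9.83% and 3.66% to 19.1% of them. WT library 1 and cKO library 1 are the deepest and have the lowest mitochondrial shares, so the difference of each of the 7 genes is also given within replicate 1 and within replicates 2 and 3. B cell markers summed to 40898 to 49144 normalized counts in WT, with 42999 to 51301 in cKO. cKO library 2 had the highest sums of T cell markers (2748, beside 827 to 1112 in the other libraries) and of naive and memory B cell markers (11299, beside 2576 to 6250). GC B cell markers summed to 14328 to 16694 in WT, and to 15311, 9196 and 11181 in cKO. Of these 10 markers 9 had a negative difference, with a median of -0.32 and of -0.15 without cKO library 2. The part of these other cells in the differences below was not tested. In sorted bulk cells, fewer cells with a transcript and less of it per cell cannot be told apart.

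Spred3, Rasgrp4 and Rasgrp2 were higher in all 3 cKO libraries than in any WT library, Rasgrp3 was lower in all 3, and Rasgrp1, Spred1 and Spred2 overlapped between the groups. Over all 14678 genes tested, 6.28% were higher in cKO without overlap and 5.28% were lower without overlap; since the genes were picked on this contrast, nothing is read from those shares. The median log2 difference of the 7 genes was 0.18 and that of all genes tested was -0.0019.

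**Figure D1:**
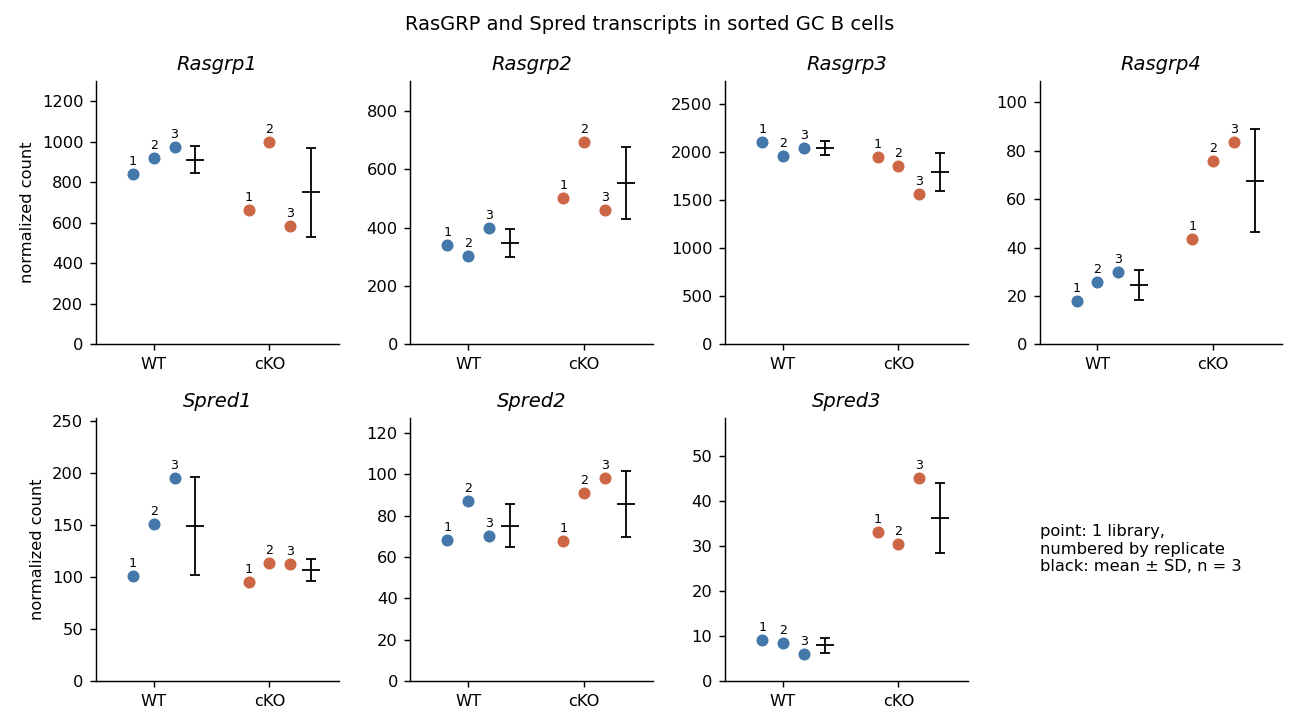
Normalized counts of the 7 genes in each library, 1 panel per gene with its own axis from 0. Points are libraries numbered by replicate, and black marks are the mean ± SD of 3 libraries. Spred3, Rasgrp4 and Rasgrp2 have all cKO points above all WT points, and Rasgrp3 has all of them below.

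Among the exchange factors, Rasgrp3 (ENSMUSG00000071042, chromosome 17, 75435896 to 75529054, plus strand) was the most abundant. It had 2103, 1959 and 2043 normalized counts in WT, with 1941, 1852 and 1565 in cKO. The groups did not overlap, but the highest cKO library and the lowest WT library were close. The means were 2035 ± 72.4 (SD, n = 3) and 1786 ± 197 (SD, n = 3), a log2 difference of -0.19 ± 0.13 (SE), which is 1.14-fold lower in cKO. It was -0.12 within replicate 1 and -0.23 within replicates 2 and 3.

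Rasgrp1 (ENSMUSG00000027347, chromosome 2, 117279993 to 117343001, minus strand) links the T cell receptor to Ras and is also present in B cells. It had 839, 922 and 974 normalized counts in WT, with 664, 1000 and 586 in cKO. cKO library 2 was above all WT libraries and the other cKO libraries were below them, so the groups overlapped. cKO library 2 is also the one with the highest T cell marker sum. The log2 difference was -0.32 ± 0.20 (SE, 912 ± 68.0 against 750.1 ± 220.1, SD, n = 3 each), with -0.34 within replicate 1 and -0.31 within replicates 2 and 3. It was -0.54 without cKO library 2 and -0.16 without cKO library 3.

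Rasgrp2 (ENSMUSG00000032946, chromosome 19, 6399340 to 6415216, plus strand) encodes a calcium-sensing exchange factor that acts mainly on Rap1. The WT libraries had 341, 302 and 399 normalized counts, and the cKO libraries 502, 695 and 462. All cKO libraries were above all WT libraries, and cKO library 2 stood highest. The means were 347 ± 48.6 and 553 ± 125 (SD, n = 3 each), a log2 difference of 0.65 ± 0.19 (SE), or 1.57-fold. Within replicate 1 the difference was 0.56, within replicates 2 and 3 it was 0.70, and it was 0.48 without cKO library 2. Of 10 platelet and megakaryocyte markers, 6 were in the table and 2 had reads in all libraries; Pf4 and Gp1ba had 1 read each over all libraries. The summed level of these markers, nearly all of it Itgb3, was 259 to 510 in WT and 263 to 685 in cKO. cKO library 2 also had the highest sums of T cell markers and of naive and memory B cell markers. The part of platelets or of these other cells in the Rasgrp2 difference was not tested.

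Rasgrp4 (ENSMUSG00000030589, chromosome 7, 29134851 to 29153961, plus strand) was the scarcest exchange factor. WT libraries had 17.7, 25.6 and 29.9 normalized counts, from 35, 24 and 35 reads. cKO libraries had 43.4, 75.9 and 83.7, from 80, 40 and 41 reads. The lowest cKO library was above the highest WT library. The means were 24.4 ± 6.19 and 67.7 ± 21.4 (SD, n = 3 each), a log2 difference of 1.41 ± 0.35 (SE), or 2.66-fold. Within replicate 1, where mitochondrial shares were 2.71% and 3.66%, it was 1.25, against 1.50 within replicates 2 and 3.

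Markers of the myeloid cells that Rasgrp4 is known from were also measured. Of 14 neutrophil and mast cell markers 11 were in the table and 1, S100a8, had reads in all libraries; over all libraries the neutrophil genes S100a9, S100a8, Ltf and Camp had 261, 119, 92 and 39 reads, and the mast cell genes Kit, Cma1, Ms4a2, Fcer1a and Cpa3 had 20, 8, 6, 2 and 1. Summed over the 11, the WT libraries had 87.0, 113 and 12.8 normalized counts and the cKO libraries 120, 70.2 and 18.4. Of the 8 tested, 4 had a positive difference, with a median of -0.036. Macrophage and monocyte markers summed to 126 to 328 in WT and 313 to 585 in cKO. All 12 that were tested had a positive difference, with a median of 0.68 and of 0.071 without cKO library 2. The part of either marker list in the Rasgrp4 difference was not tested.

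Among the inhibitors, Spred3 (ENSMUSG00000037239, chromosome 7, 29158829 to 29170411, minus strand), whose upstream stretch is printed above with 3 GC boxes, had the largest difference of the 7 genes and the lowest level. WT libraries had 9.10, 8.52 and 5.98 normalized counts, from 18, 8 and 7 reads. cKO libraries had 33.1, 30.4 and 44.9, from 61, 16 and 22 reads. The exact Poisson 95% interval of the highest WT library was 5.39 to 14.4 and that of the lowest cKO library was 17.4 to 49.3. That of WT library 2, with 8 reads, reached 16.8. Spred3 was picked for its higher cKO counts, so nothing is read from the distance between the intervals. These intervals hold counting error alone, as reads without molecular identifiers are not independent molecules. The means were 7.87 ± 1.66 and 36.1 ± 7.75 (SD, n = 3 each), a log2 difference of 2.06 ± 0.37 (SE), or 4.18-fold. It was 1.75 within replicate 1 and 2.22 within replicates 2 and 3.

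Spred1 (ENSMUSG00000027351, chromosome 2, 117121374 to 117182279, plus strand) encodes the family member best known for binding neurofibromin. It had 101, 151 and 195 normalized counts in WT, with 94.9, 114 and 112 in cKO. WT library 1 lay within the cKO range, and the other WT libraries were above all cKO libraries. The log2 difference was -0.43 ± 0.26 (SE, 149 ± 47.1 against 107 ± 10.5, SD, n = 3 each). Within replicate 1 it was -0.083, against -0.60 within replicates 2 and 3, with -0.68 without WT library 1 and -0.21 without WT library 3.

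Spred2 (ENSMUSG00000045671, chromosome 11, 19924375 to 20024026, plus strand), an inhibitor expressed in many tissues, had 68.2, 87.3 and 70.1 normalized counts in WT, with 67.8, 91.1 and 98.0 in cKO. The libraries of the groups were interleaved. Its log2 difference was 0.18 ± 0.23 (SE, 75.2 ± 10.5 against 85.6 ± 15.9, SD, n = 3 each), with -0.0097 within replicate 1 and 0.27 within replicates 2 and 3. It was 0.33 without cKO library 1 and 0.072 without cKO library 3.

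**Figure D2:**
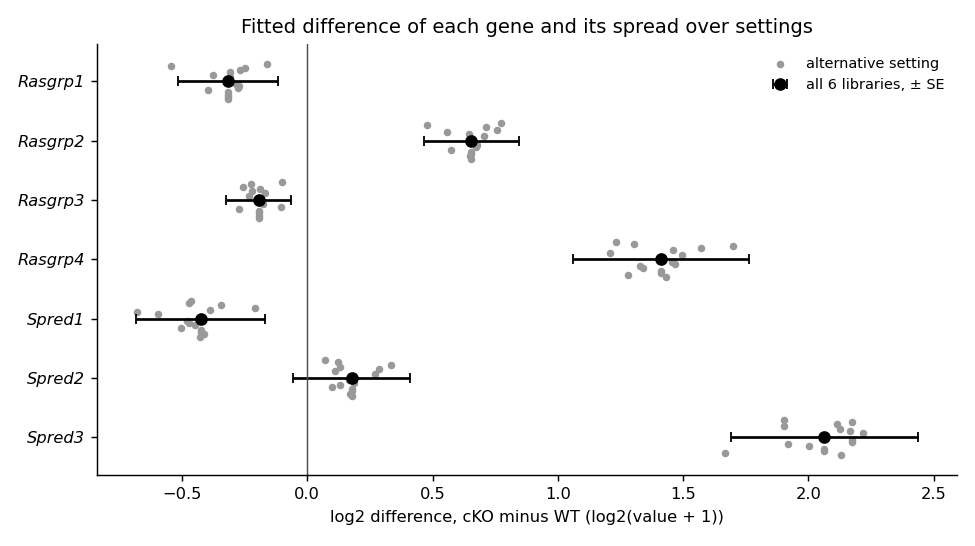
Fitted log2 difference, cKO minus WT on log2(value + 1), of each of the 7 genes. Black points with bars are the value from all 6 libraries ± SE, and grey points are the value under each alternative processing or with libraries left out. Every gene keeps the sign of its difference over the 17 alternatives, with Spred2 reaching closest to 0 at 0.072.

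Levels were compared between genes per kb of exon, that is, as normalized counts divided by the summed length of a gene's exons in GENCODE M21. The order in WT is a description too, since the WT libraries are part of the contrast that picked the genes. Rasgrp3 stood first with 348 ± 12.4 per kb (SD, n = 3), Rasgrp1 second with 163 ± 12.1 and Rasgrp2 at 28.0 ± 3.93. Spred1 at 21.9 ± 6.95 and Spred2 at 16.3 ± 2.28 came next, then Rasgrp4 at 3.83 ± 0.972 and Spred3 at 1.26 ± 0.267. WT libraries of Rasgrp2 and Spred1 overlapped, as did those of Spred1 and Spred2, although the order of these 3 genes held within each WT library. The other neighbours in the order did not overlap. In cKO the per-kb levels were 306 ± 33.7 for Rasgrp3, 134 ± 39.3 for Rasgrp1, 44.6 ± 10.1 for Rasgrp2 and 10.6 ± 3.36 for Rasgrp4. Those of the inhibitors were 18.5 ± 3.43 for Spred2, 15.8 ± 1.55 for Spred1 and 5.81 ± 1.25 for Spred3.

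As a share of all RasGRP transcripts per kb, Rasgrp3 made up 64.2% ± 2.22 in WT and 62.1% ± 5.34 in cKO, and Rasgrp1 30.0% ± 1.94 and 26.7% ± 4.31 (SD, n = 3). Rasgrp2 made up 4.62% to 5.75% in WT libraries and 8.13% to 9.95% in cKO libraries, which did not overlap. Rasgrp4 made up 0.704% ± 0.169 and 2.20% ± 0.874, so the genes that were higher in cKO remained a small fraction of the family. The RasGRP sum per kb was 543 ± 16.2 in WT and 495 ± 70.5 in cKO, within the cKO spread. Dividing by the longest transcript instead of all exons gives Rasgrp2 a WT share of 6.05% and Rasgrp1 one of 26.8%.

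Spred1 made up 54.7% ± 8.40 in WT and 39.5% ± 2.37 in cKO, Spred2 41.9% ± 7.20 and 46.0% ± 2.45, and Spred3 3.36% ± 1.29 and 14.5% ± 2.35 (SD, n = 3). Spred1 had the largest share of the inhibitors in all WT libraries (in library 1 only by 47.7% to 47.6%), and Spred2 had it in all cKO libraries. Per kb of the longest transcript the order in cKO library 1 turned, with 40.3% for Spred1 and 38.9% for Spred2. The Spred sum per kb was 39.5 ± 7.38 in WT and 40.1 ± 5.62 in cKO, a difference smaller than either spread.

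**Figure D3:**
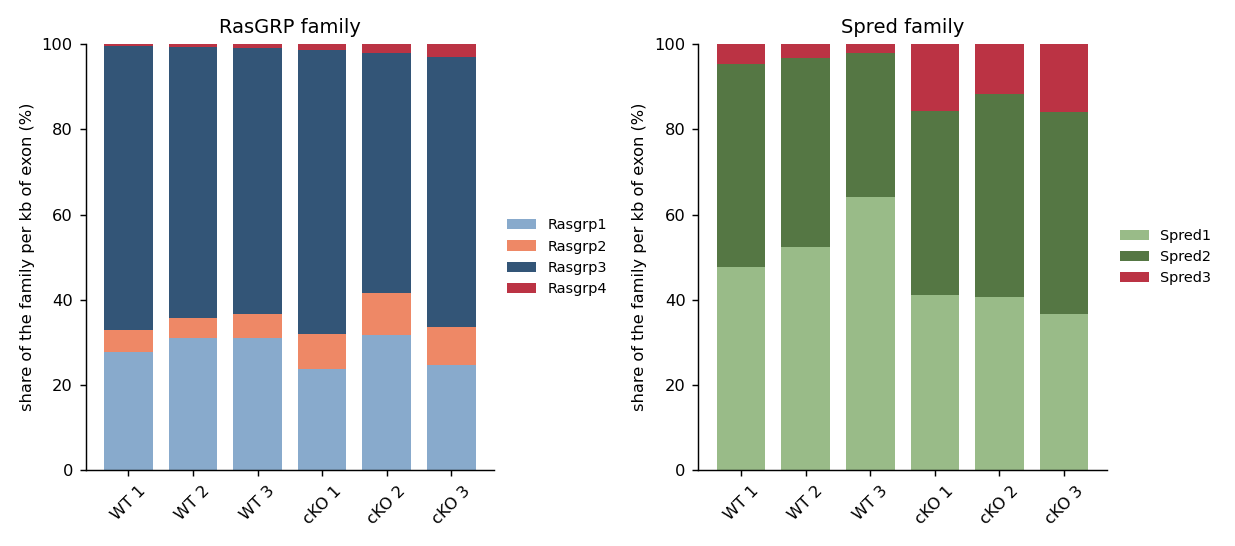
Share of each gene in its family, in percent of the family's normalized counts per kb of exon, with 1 stacked bar per library. Rasgrp3 and Rasgrp1 fill most of every RasGRP bar, and the Spred3 part is 2.14% to 4.71% in WT and 11.8% to 16.1% in cKO.

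Of the 7 genes, 5 share an arrangement that was not used to pick them, and Rasgrp2 and Spred2 do not. The 5 lie within 100 kb of a Fam98 gene, a family named in studies of RNA ligase and arginine methylation complexes. On chromosome 7 the order is Rasgrp4, Fam98c, Spred3, with 4.87 kb between Rasgrp4 and Spred3. On chromosome 2 it is Spred1, Fam98b, Rasgrp1 over a gap of 97.7 kb, and on chromosome 17 Fam98a follows Rasgrp3 after 8.03 kb. On opposite strands, Rasgrp4 overlaps Fam98c by 1452 bases and Gm16282 by 1873 bases, Spred3 overlaps Ggn by 202 bases, and Rasgrp2 overlaps Gm14965 by 5817 bases. No source used here gives the strand setting of the counting, so reads in these overlaps cannot be told apart and the values of Rasgrp2, Rasgrp4, Fam98c, Spred3 and Ggn are uncertain to that extent.

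Each Fam98 gene had the sign of the RasGRP gene beside it, without passing the test. Fam98c had 74.3, 71.3 and 58.9 normalized counts in WT, with 88.9, 102 and 94.0 in cKO, with all cKO libraries above all WT libraries. Its log2 difference was 0.48 ± 0.21 (SE), with an adjusted p of 0.915 (limma). Fam98b was at 436 ± 26.1 in WT and 388 ± 11.0 in cKO (SD, n = 3), with all cKO libraries lower, a log2 difference of -0.17 ± 0.13 and an adjusted p of 0.930 (limma). Fam98a was at 433 ± 49.8 and 376 ± 51.1 (SD, n = 3) with overlapping libraries, a log2 difference of -0.20 ± 0.16 and an adjusted p of 0.930 (limma).

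Within 100 kb of the 7 genes lie 36 other annotated genes, of which 25 are in the table and 22 could be tested. limma called 0 of these 22, edgeR 0 of the 15 it could test and DESeq2 0 of 20. Over all genes limma and edgeR called 0.0%, and DESeq2 called 0.111% higher and 0.0369% lower in cKO. Of the 22 neighbours, 2 had an unadjusted p under 0.05 with limma (Fam98c and Kcnk6). Without overlap between the groups 4 were higher in cKO (Fam98c, Ggn, Catsperg1 and Ehd1) and 1 was lower (Fam98b), beside 6.28% and 5.28% of all genes. Around Rasgrp4 and Spred3, 8 of 10 tested neighbours had a positive difference. Their median was 0.35, beside -0.0019 over all genes tested, and their range was -0.089 to 1.07. The abundant neighbour there, Psmd8, a proteasome subunit gene 3.78 kb from Spred3, was at 1016 in WT and 1029 in cKO, a log2 difference of 0.016. Ryr1, a calcium release channel gene on the far side of Rasgrp4, was at 80.5 ± 13.2 and 93.5 ± 6.40 (SD, n = 3) with overlap. Ggn, at 3.10 and 5.34, and Catsperg1, at 1.71 and 4.57, rest on a few reads per library. 1110035H17Rik, the upper end of the range, was at 0.622 and 3.31, with 0 in WT library 2 and in cKO library 1. Its WT mean alone is under the filter's mean of 1. Its difference was -1.01 within replicate 1 and 2.10 within replicates 2 and 3.

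Kcnk6, a potassium channel gene named after its values were seen, was at 71.4 ± 16.1 in WT and 110 ± 24.7 in cKO (SD, n = 3), with overlap, and its adjusted p was 0.915 (limma). Around Rasgrp2, 3 of 7 tested neighbours had a positive difference; Pygm, the muscle glycogen phosphorylase gene 0.881 kb away, was at 15.2 in WT and 15.4 in cKO. Beside Spred2, the actin nucleation gene Actr2 was at 3784 in WT and 3348 in cKO, a log2 difference of -0.17. Ltbp1 near Rasgrp3, at 2.02 and 0.862, and Gm13981 near Spred1, at 0.674 and 1.45, were close to the level of single reads.

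**Figure D4:**
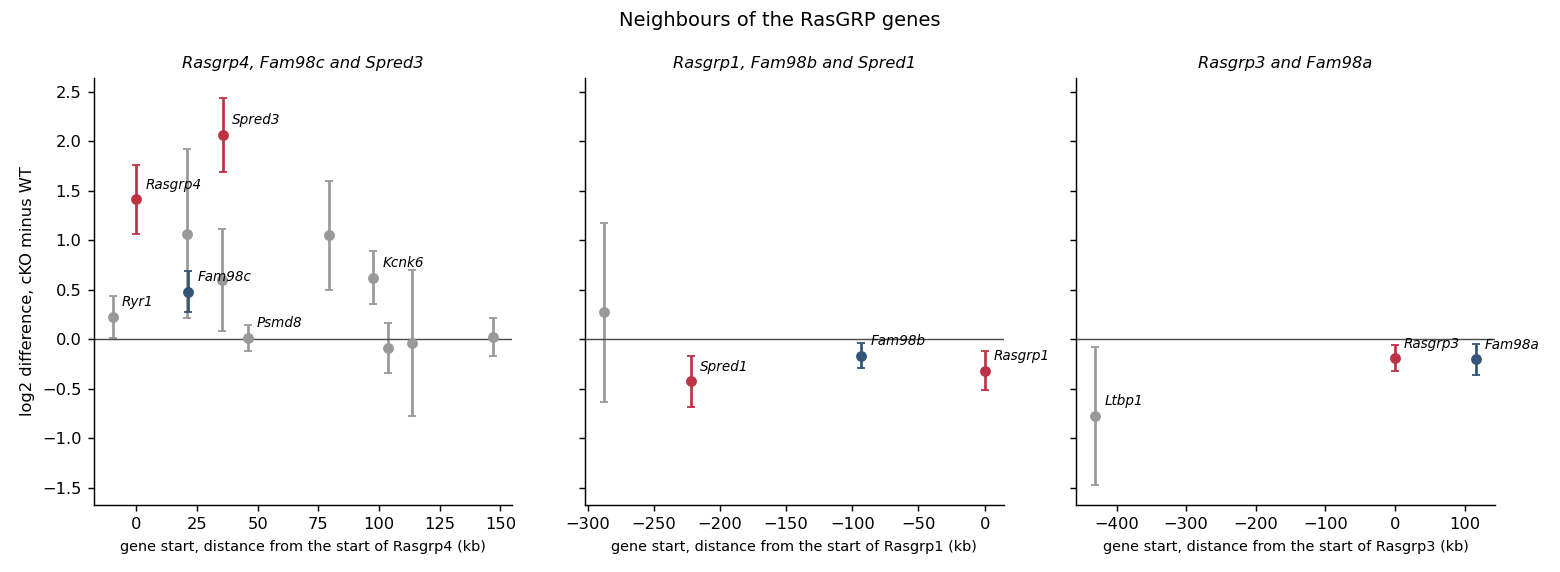
Fitted log2 difference (cKO minus WT, ± SE) of the genes tested within 100 kb, by the distance of each gene's start from the start of Rasgrp4, Rasgrp1 or Rasgrp3 in kb. Red points are RasGRP and Spred genes, blue points Fam98 genes and grey points other genes. Rasgrp4, Fam98c and Spred3 lie above 0 at 1.41, 0.48 and 2.06, and Spred1, Fam98b and Rasgrp1 lie below 0.

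The genes whose log2 values followed each gene most closely over the 6 libraries were taken by Pearson's r among 9166 genes whose mean was 20 or more. All r share the same libraries, whose depth and other cells differ, and each is the best of many over 6 points, so they are a description only. Rasgrp2 was followed most closely by Zbtb32 (r = 0.996), a transcription factor gene of activated lymphocytes, then Rffl (0.992) and Gsdmd (0.987). Zbtb32 was at 35.1 in WT and 103.7 in cKO. Rasgrp4 was followed by Atp1b3 (0.995), Gypc (0.991) and Ergic1 (0.990), and Spred3 by Tbc1d10a (0.990), Tnfaip8l2 (0.989) and Atad3a (0.985).

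Rasgrp1 was followed by Exoc2 (r = 0.996), an exocyst subunit gene, with Gmcl1 (0.989) and Ttc39b (0.988). Exoc2 shared its highest cKO value in library 2, with 378 normalized counts beside 292 and 272. Rasgrp3 was followed by Trp53i13 (0.995), Gpd2 (0.989) and Ralb (0.987), a Ras-like GTPase gene. Spred1 was followed by Fam107b (0.997), Cldnd1 (0.989) and Slc4a7 (0.985), and Spred2 by Ptpn2 (0.991), a tyrosine phosphatase gene, Thumpd3 (0.978) and Xylt2 (0.976). Genes of the RasGRP and Spred families were compared with each other separately from these lists. Their r was highest for Rasgrp4 and Spred3 (0.859) and lowest for Rasgrp3 and Rasgrp4 (-0.848). The genes named above are the closest of 9166, so their r cannot be compared with those within the families. Rasgrp4 and Spred3 were both picked for higher cKO counts, so nothing is read from their r.

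The pathway around the 7 genes was described with 8 lists of 112 other genes, 109 of them in the table and 107 tested. limma called 0 of these 107, edgeR 0 of the 94 it could test and DESeq2 0 of 103. With an unadjusted limma p under 0.05 there were 3 higher (2.80%) and 5 lower (4.67%), beside 2.98% and 2.17% of all genes. Without overlap between the groups, 9 were higher (8.41%) and 8 lower (7.48%), beside 6.28% and 5.28%. All adjusted p-values from limma were between 0.915 and 0.996. Named below are the pair with the smallest p in each list and, in all lists but 1, the most abundant gene.

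The substrates came first: 2 of 10 tested Ras family GTPases had a positive difference, and their median log2 difference was -0.16. Nras was at 603 ± 28.7 in WT and 530 ± 26.4 in cKO (SD, n = 3), without overlap, a log2 difference of -0.19. Rras was at 30.3 ± 7.10 and 45.4 ± 3.16, without overlap, and Rap1b, the main Rap1 gene of blood cells, at 1610 and 1526.

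Other exchange factors numbered 13 tested genes, 5 of them positive, with a median of -0.12. Ralgds, whose product binds loaded Ras and acts on Ral, had 781, 734 and 716 normalized counts in WT, with 940, 919 and 1087 in cKO. No library overlapped, and the log2 difference was 0.40 ± 0.13 (SE), with an unadjusted p of 0.012 and an adjusted p of 0.915 (limma). Rgl2, of the same Ral branch, was at 312 ± 27.8 and 468 ± 114 (SD, n = 3), also without overlap. Rapgef1, a Rap exchange factor, was at 2632 and 2705.

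The GTPase-activating proteins, which switch Ras off, had 6 of 12 positive and a median of -0.026. Nf1, whose product is the partner of the Spred proteins, had 339, 328 and 288 normalized counts in WT, with 246, 214 and 190 in cKO. All cKO libraries were below all WT libraries, and the log2 difference was -0.56 ± 0.16 (SE), with an unadjusted p of 0.0072 and an adjusted p of 0.915 (limma). Rasal1 had 109, 128 and 90.6 in WT and 176, 173 and 184 in cKO. Its libraries did not overlap either, and its log2 difference was 0.71 ± 0.19 (SE), with an unadjusted p of 0.0045 and an adjusted p of 0.915 (limma). Iqgap1, a scaffold with a related domain, was at 3828 and 3385 with overlap.

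The RAF, MEK and ERK kinases and scaffolds had 7 of 11 positive, a median of 0.044 and no gene without overlap. Braf was at 218 ± 24.8 and 184 ± 34.8 (SD, n = 3), and Shoc2 at 224 and 202. Sprouty and other ERK inhibitors had 10 of 13 positive and a median of 0.15, again with overlap in all. Spry1 was at 2.85 ± 2.72 and 10.1 ± 9.33 (SD, n = 3), Dusp10 at 349 and 375, and Dusp2, a phosphatase acting on ERK, at 1262 and 1383.

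Genes that make or remove diacylglycerol, a signal that recruits some RasGRP proteins, were listed with the protein kinase C genes, whose products bind it. The list had 11 of 15 positive and a median of 0.052. The kinases Dgke, at 168 ± 38.3 in WT and 111 ± 4.02 in cKO (SD, n = 3), and Dgkg, at 7.26 ± 3.51 and 1.54 ± 1.39, were lower without overlap. Dgkg was close to the level of single reads, with 2.71, 1.90 and 0 normalized counts in the cKO libraries. Plcg2, the phospholipase of the B cell receptor, was at 4299 and 4340. Genes close to the receptor had 7 of 17 positive and a median of -0.14. The kinase Fyn was at 527 ± 83.4 and 380 ± 55.3 (SD, n = 3) without overlap, Cbl at 1045 ± 322 and 711 ± 23.4 with overlap, and Cd79b, a receptor subunit, at 5815 and 6155.

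ERK response genes, which are transcribed soon after ERK is active, had 13 of 16 positive and the highest median of the 8 lists at 0.43, but the groups overlapped for all 16. Fos ranged widely, at 2659 ± 1424 in WT and 3592 ± 2371 in cKO (SD, n = 3). Fosl2 was at 9.63 ± 7.26 and 29.5 ± 24.6, and Ier3 at 7.07 ± 5.43 and 15.8 ± 6.72. Single libraries moved the list's median: it was 0.24 without WT library 1, 0.91 without WT library 3, 0.97 without cKO library 1, 0.23 without cKO library 2 and 0.26 without cKO library 3. Naive and memory B cell markers had 10 of 10 positive, with a median of 0.78 and of 0.13 without cKO library 2; their part in the ERK response values was not tested. Of the 8 medians, 3 kept their sign over the 17 alternatives: those of the GTPases, of the genes close to the receptor and of the ERK response genes.

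**Figure D5:**
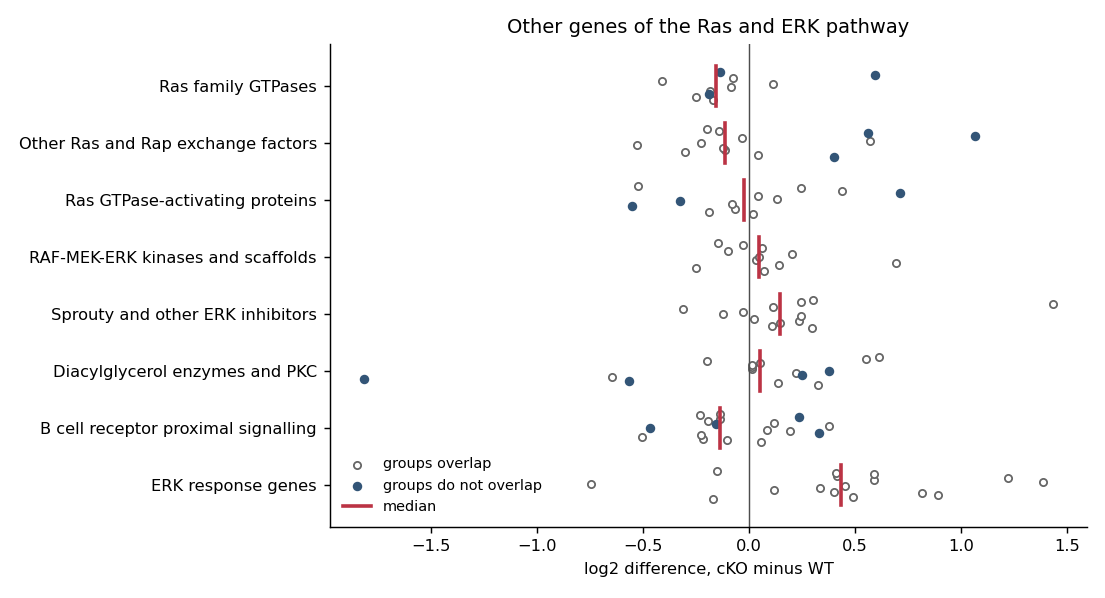
Fitted log2 difference (cKO minus WT) of each tested gene in 8 pathway lists, 1 point per gene. Filled points are genes whose libraries do not overlap between the groups, and red bars are list medians. The medians run from -0.16 for the Ras family GTPases to 0.43 for the ERK response genes, and no gene passed the test.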

How the data were processed

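The 6 libraries were RNA sequencing of sorted GC B cells, grouped by the titles in the labels as 3 WT and 3 cKO. RNA came from a column kit and libraries from Illumina's protocol, per the labels' protocols. The submitters' processing notes list mm10 and, with no version or role, the tools HTSeq, DESeq2, SAMtools, TopHat2, HISAT and HISAT2. No source used here gives the annotation, the strand setting or the handling of multiply mapped reads.

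The authors deposited 1 table with a signal per gene and library, which is a read count divided by a size factor, and its mean. All values were whole multiples of the value of 1 read within 0.01 read, and 100% of values in each library came out whole. In WT libraries 1 read equals 0.506 to 1.06 normalized counts, against 0.542 to 2.04 in cKO libraries, so low genes are least precise in cKO libraries 2 and 3. The table also holds the authors' log2 fold change, its standard error, a test score, a p-value and an adjusted p-value, per the file headers; these are not used here. The table has 10 rows with no gene name.

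Genotypes were compared on log2(value + 1) with limma 3.58.1 (R 4.3.3, trend option, no other term) over 14678 genes with a mean of at least 1, with Benjamini-Hochberg adjustment at 0.05. Log2 differences on this scale understate changes of low genes. The recovered reads were also tested with edgeR 4.0.16 (quasi-likelihood) and DESeq2 1.42.0. The script was tested on simulated data with known changes. Alternatives were other pseudocounts, filters and scalings, a replicate block, a term for replicate 1, and leaving out libraries. Positions are from GENCODE M21 (GRCm38, the assembly named mm10), in which 19563 of 19680 genes were found. Upstream sequences are RefSeq's in GRCm38.p6. Neighbours farther than 100 kb were left out. Genes named are the 7, Senp1, up to 3 per pathway list (1 such gene is not reported here), the nearest tested neighbours within 100 kb and the 3 closest patterns; Kcnk6, Catsperg1, Ehd1 and Psmd8 were added after values were seen. The genes and lists were chosen with earlier results of these data known.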

Additional observations from a re-analysis of the deposited data

How the results depend on the processing

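The signs of all 7 differences held in 17 alternatives. That of Spred3 was 1.67 with a pseudocount of 5 and 1.90 to 2.18 with 1 library left out. Over all genes limma called 0, also with any library left out, DESeq2 called 20 (15 higher, 5 lower), the replicate block 1 and a term for replicate 1 called 3; with edgeR the count was 0. The labels call the mice paired but do not say that the replicate numbers mark the pairs, so the main fit held no pair term. Same-numbered libraries had correlations of their deviations of 0.493, 0.0545 and 0.201. WT library 2 had 0.0662 with cKO library 3, too close to its 0.0545 with cKO library 2 to decide the pairing. No pathway or neighbour gene that an alternative tested was called. WT shares moved to 26.8% for Rasgrp1 and 6.05% for Rasgrp2 with the longest transcript. Differences near 0 changed sign, and the cause was not tested. With library totals Rapgef1 was at -0.038, Plcg2 at -0.067 and Psmd8 at -0.064; with quantile normalization Plcg2 was at -0.043, Cd79b at -0.027 and Pygm at -0.048; in replicates 2 and 3 Pygm was at -0.18 and Psmd8 at -0.0069. With 1 library left out, Rap1b ranged from -0.32 to 0.17, Rapgef1 from -0.028 to 0.092, Dusp2 from -0.013 to 0.34, Plcg2 from -0.074 to 0.089, Fos from -0.17 to 0.97, Pygm from -0.12 to 0.45 and Psmd8 from -0.045 to 0.10. Among the 7 genes depth limits Spred3 most, which rests on 7 to 18 reads per WT library; neighbours near the level of single reads are less precise.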
